A study of Mus musculus with 12 samples.

Results

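The genes described are 8 aldo-keto reductases of the Akr1a, Akr1b and Akr1c groups, taken as the rows of the expression table that carry their symbols, out of 15855 genes in the table. They are Akr1a1, Akr1b3, Akr1b7, Akr1b8, Akr1c12, Akr1c13, Akr1c14 and Akr1c19. They were picked with differences between pMCAO and sham in these samples already known, so their differences between the groups are a description and carry no test. RNA was sequenced from EpCAM+ epithelial cells, sorted from the whole small intestine of C57BL6/J mice collected 24 h after surgery. The 7 sham-operated mice underwent the same operation without the occlusion, and the 5 pMCAO mice had the middle cerebral artery blocked for good, so that no blood flow returned. By the study's methods the mice were 8 to 12 weeks old and male unless stated otherwise, and the labels name no genetic change. The titles number the libraries from 58 to 72, and the 4 libraries numbered 58 to 61 (sham replicates 1, 2 and 3 and pMCAO replicate 1) are called early below and the other 8 later.

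Aldo-keto reductases use NADPH to turn the reactive carbonyl group of aldehydes and ketones into an alcohol. In the gut epithelium they act on aldehydes from food and from oxidised lipids, on sugars, on retinaldehyde and on steroids. Many arose by gene duplication and sit side by side in the genome, so reads of close relatives can be hard to assign.

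In the GRCm38 annotation (GENCODE M21) the 3 Akr1b members lie together on chromosome 6, Akr1b3 at chr6:34302434-34317478 on the minus strand, Akr1b8 at chr6:34354119-34368463 on the plus strand and Akr1b7 at chr6:34412334-34423142 on the plus strand. Akr1b10, a close relative that is not a member, lies between Akr1b8 and Akr1b7 at chr6:34384218-34396950. The 4 Akr1c members share a stretch of chromosome 13, with Akr1c14 at chr13:4049011-4090688, Akr1c13 at chr13:4191150-4205596 and Akr1c19 at chr13:4228700-4252843 on the plus strand and Akr1c12 at chr13:4268176-4279433 on the minus strand. Akr1a1 stands alone on chromosome 4 at chr4:116636510-116651680 on the minus strand. All 8 are annotated as protein coding.

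The closest pair was Akr1c12 and Akr1c13, whose coding sequences (969 bases each) were 96.2% identical, with 37 differing positions and an identical run of 228 bases, longer than a read of 100 bases. Of the 100-base windows in their transcripts, 134 occurred in both genes, which is 11.5% of those of Akr1c12 and 9.36% of those of Akr1c13. A read from such a window cannot be assigned to either gene by its own sequence. The reads came in pairs, and whether the other read of a pair placed it was not examined. The 60-base stretch of the aligned coding sequence with most differences is shown for this pair, because it is where reads tell the genes apart best. It covers coding bases 343 to 402, crosses from exon 3 into exon 4, and spans chr13:4274392-4275750 on the minus strand in Akr1c12 and chr13:4194767-4196465 on the plus strand in Akr1c13. Capitals mark the 9 differing bases.
Akr1c12: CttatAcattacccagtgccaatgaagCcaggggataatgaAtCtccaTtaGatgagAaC
Akr1c13: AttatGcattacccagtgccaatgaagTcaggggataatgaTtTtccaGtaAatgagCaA

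The nearest relative of Akr1b7 among the aldo-keto reductases in the table was Akr1b10, at 89.2% identity of the coding sequence with a longest identical run of 59 bases. The same kind of stretch is shown for this pair, because Akr1b7 has the largest difference between the groups. It covers coding bases 352 to 411 in exon 4 of both genes, at chr6:34417283-34417342 in Akr1b7 and chr6:34390055-34390114 in Akr1b10, both on the plus strand. Capitals mark the 17 differing bases.
Akr1b7: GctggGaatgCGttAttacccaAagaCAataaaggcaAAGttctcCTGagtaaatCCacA
Akr1b10: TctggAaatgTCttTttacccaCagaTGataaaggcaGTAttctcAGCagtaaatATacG

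No 100-base window of an Akr1b7 transcript occurred in Akr1b10. The 11 shared windows of Akr1b7 (0.931%) were in Gm13857, a pseudogene that overlaps 348 of its exon bases on the opposite strand. Whether the counting used strand is not given in the sources used here, so reads that lie within those bases cannot be told apart by their own sequence. Akr1a1 and Akr1b8 shared no window with another gene, Akr1c19 shared 3.32% and Akr1c14 4.30%, each with a pseudogene annotated inside its own locus. Akr1b3 shared 10.8%, of which 859 of 953 windows matched Gm38056. Akr1c14 and Akr1c19 had no closer relative in the table than 74.0% (Akr1c21) and 77.8% (Akr1c12), and Akr1a1 none above 59%.

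**Figure D1:**
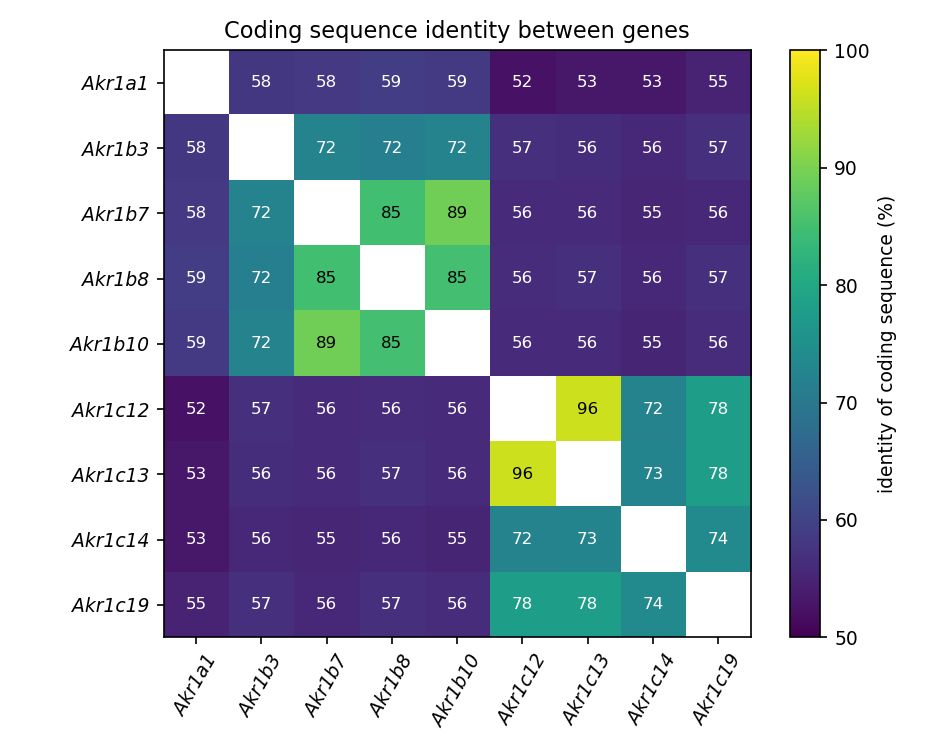
Identity of the coding sequence (%) between the 8 members and Akr1b10, from global alignment of the longest coding sequence of each gene. Each cell is 1 pair and the diagonal is left blank; Akr1c12 and Akr1c13 stand out at 96%, and Akr1b7 is closest to Akr1b10 at 89%.

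Total counts per library ranged from 7418730 to 31925579, so that 3 counts stood for 0.0692 to 0.724 CPM, the unit of level used here, which sets counts against the library total scaled with TMM factors. Mitochondrial ribosomal RNA took 34.8% to 54.5% of the counts in early libraries and 14.6% to 35.2% in later ones. The sorted cells carried their markers, since the summed level of 5 epithelial genes was 4290 to 9830 CPM in sham and 4210 to 10500 CPM in pMCAO samples. That sum was 8450 to 10500 CPM in early and 4210 to 7510 CPM in later libraries. Of 6 stromal genes 4 were not among the rows and the other 2 summed to at most 13.7 CPM. Immune genes were counted too, and 7 of 7 were among the rows. They summed to 31 to 207 CPM in sham and 39.9 to 121 CPM in pMCAO samples. Of 14462 genes tested with limma-voom on the group alone, 0 passed the call, which asks for a difference of 1 or more on the log2 scale in either direction and a p no higher than 0.05 after Benjamini-Hochberg adjustment. An unadjusted p under 0.05 was found for 1219 of them (8.43%), and edgeR called 0 and DESeq2 70. With 4 blocks of neighbouring library numbers as a covariate, limma-voom called 47 genes (0.325%), 20 of them higher.

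Compared per kilobase of exon, Akr1a1 and Akr1b7 led the members and Akr1b8 and Akr1b3 were lowest. Akr1a1, the aldehyde reductase that also serves vitamin C synthesis in mice, was at 43.3 ± 6.85 CPM per kilobase in sham (SD, n = 7) and 42.3 ± 7.97 in pMCAO samples (SD, n = 5). Akr1b7 followed with 9.57 ± 3.8 in sham, next to Akr1c12 at 7.43 ± 5.28, and these neighbours did not differ beyond their spread. In pMCAO samples Akr1b7 was at 35.5 ± 14.9 CPM per kilobase of exon, within the spread of Akr1a1. This nearness depends on the length used, because the exons of Akr1a1 span 2750 bases and its coding transcript 1420. By the coding transcript Akr1a1 was at 81.9 ± 15.4 in pMCAO samples, and Akr1b7, unchanged at 35.5 ± 14.9, lay below that spread. Below them in both groups came Akr1c13 (3.81 ± 2.50 in sham), Akr1c14 (2.55 ± 2.47), Akr1c19 (1.38 ± 0.987), Akr1b8 (0.610 ± 0.597) and Akr1b3 (0.223 ± 0.153). In sham samples each of these means lay within the larger SD of the 2 neighbours. The value of Akr1b3 depends on the length used, because its annotated exons span 8384 bases with transcripts other than the coding one included, and by the length of its coding transcript (1387 bases) it was 1.35 ± 0.926 in sham and 1.71 ± 1.66 in pMCAO samples.

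**Figure D2:**
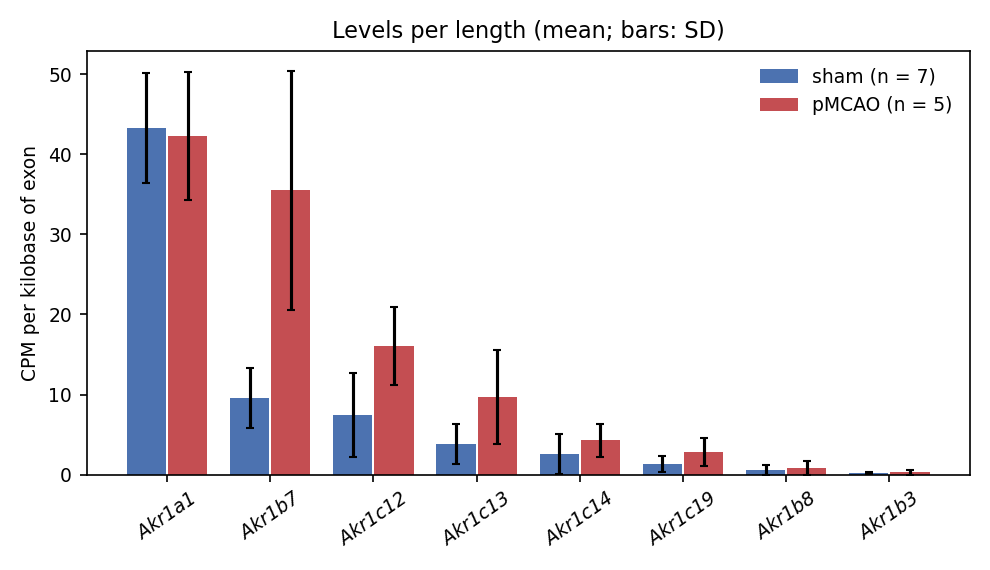
Mean level of each member in CPM per kilobase of exon, with SD as the error bar, in 7 sham and 5 pMCAO samples. Akr1a1 has the tallest bars in both groups (43.3 and 42.3), and Akr1b7 goes from 9.57 in sham to 35.5 in pMCAO samples.

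Akr1b7 was the member with the largest fold difference and the 1 member without overlap between the groups. It encodes an aldose reductase-like protein that reduces aldehydes from lipid peroxidation and steroid side-chain cleavage, and its gene is known as a target of bile acid and xenobiotic receptors in gut and liver. Its level was 7.16 CPM at the lowest, 11.1 at the median and 21.7 at the highest of the 7 sham samples. In pMCAO replicates 1 to 5 it was 28, 26.5, 42.6, 67.8 and 62.4 CPM. Every pMCAO sample therefore lay above every sham sample, the closest being sham replicate 5 and pMCAO replicate 2, and 45 of the 14462 genes (0.311%) were separated in this direction. The counts behind these values ran from 46 to 1846. The fitted log2 fold change was 1.75 (SE 0.32), which is 3.35-fold, and it was 1.71 (SE 0.27) with library blocks. Within the 3 blocks that held both groups it was 1.51, 1.42 and 2.21. The first value sets pMCAO replicate 1 alone against sham replicates 1 to 3. The second sets pMCAO replicates 2 and 3 against sham replicates 4 and 5, and the third pMCAO replicates 4 and 5 against sham replicate 6 alone. In a bulk sample, fewer or more cells of a type and less or more RNA per cell cannot be told apart.

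The early libraries did not hold the separation of Akr1b7 alone. In the early libraries sham replicates 1 to 3 were at 8.28, 10.2 and 11.1 CPM and the pMCAO sample at 28, and in the later ones the sham samples reached at most 21.7 and the pMCAO samples at least 26.5. Without the early libraries its log2 fold change was 1.70 (SE 0.36), and 1.77 (SE 0.34) with blocks. Set against Akr1a1, which shares no window with another gene and had a log2 fold change of -0.026, the ratio of Akr1b7 to Akr1a1 counts was 0.0669 to 0.224 in sham (median 0.0835) and 0.182 to 0.609 in pMCAO samples (median 0.439). By this ratio sham replicate 5, at 0.224, lay above pMCAO replicate 1, at 0.182, so the groups overlapped. The overlapping pseudogene Gm13857 was counted at 0.329 ± 0.378 CPM in sham and 1.68 ± 0.873 CPM in pMCAO samples, with at most 79 counts in a library against 1846 for Akr1b7.

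**Figure D3:**
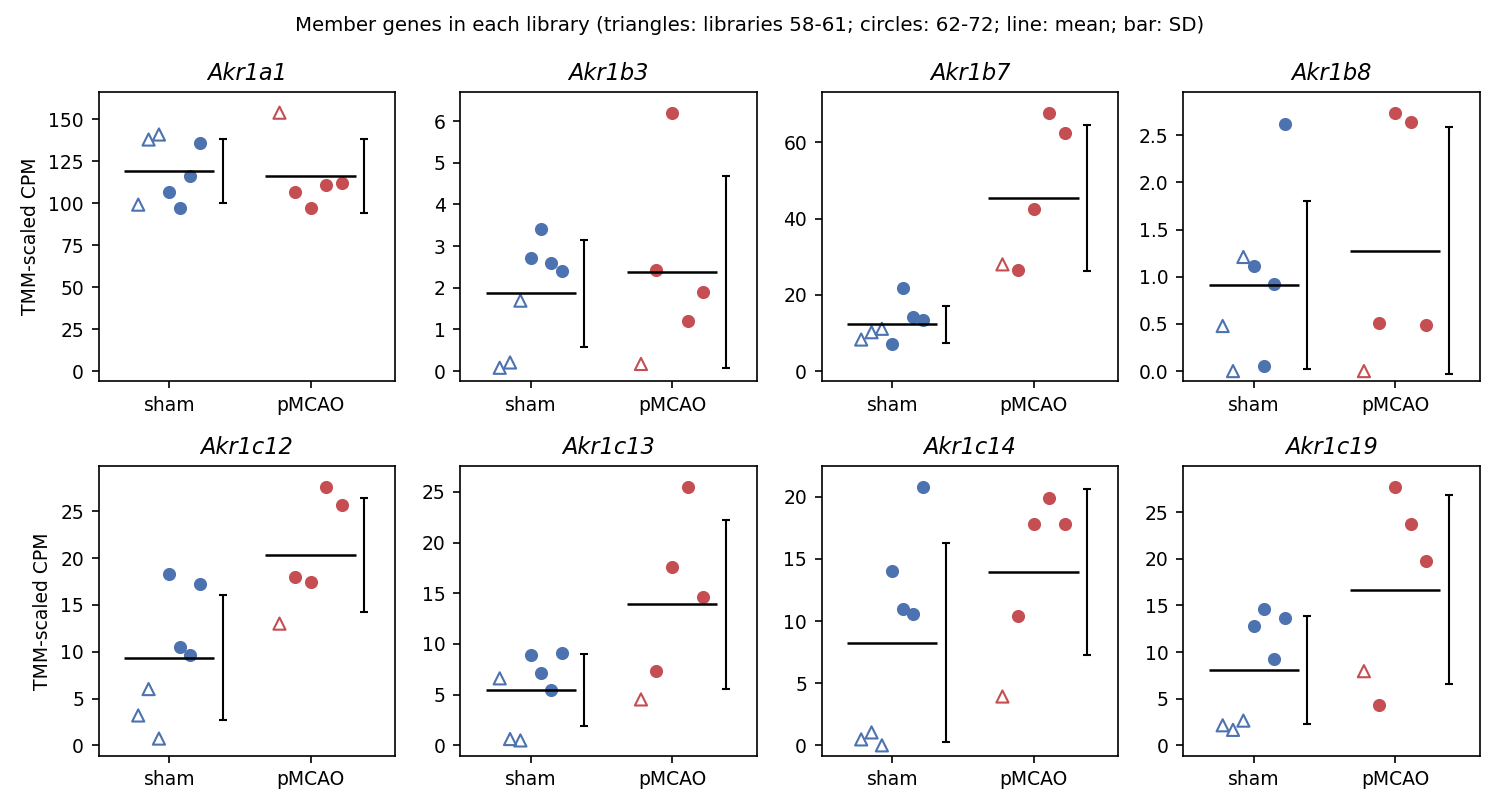
TMM-scaled CPM of each member in each of the 12 libraries, by group; open triangles are early libraries (58 to 61), filled circles later ones, the line is the group mean and the bar beside it the SD. The pMCAO points of Akr1b7 (26.5 to 67.8 CPM) lie above all sham points (7.16 to 21.7 CPM), while the early sham triangles of Akr1c14 lie near 0.

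Akr1b8, a relative that reduces retinaldehyde and other aldehydes, was near the limit of detection. It had 0 counts in sham replicate 2 and pMCAO replicate 1, which allows up to 0.622 and 0.256 CPM, and it reached 2.62 CPM in sham and 2.74 CPM in pMCAO samples. The pMCAO values were 0, 0.514, 2.74, 2.64 and 0.490 CPM, inside the sham range but for the 2 highest. Its log2 fold change was 0.35 (SE 1.04), and within blocks it was -3.28, 1.92 and 0.32, so that no direction held.

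Akr1b3, the aldose reductase that makes sorbitol from glucose, overlapped between the groups and had a fold change smaller than its SE. It ran from 0.0796 to 3.41 CPM in sham samples with a median of 2.40. In pMCAO samples it was 0.171, 2.43, 6.2, 1.2 and 1.89 CPM. The log2 fold change was 0.55 (SE 0.85) and turned to -0.083 (SE 0.50) with library blocks. Akr1a1 overlapped as well, at 97.2, 116 and 141 CPM (lowest, median and highest of sham) against 154, 107, 96.9, 111 and 112 CPM in pMCAO samples, with a log2 fold change of -0.026 (SE 0.17).

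All 4 Akr1c members had higher means in pMCAO samples, and in each the groups overlapped. Akr1c12 and Akr1c13 belong to the reductases first found as genes regulated by interleukin-3, and their reads are shared as described above. Akr1c12 was 0.724 CPM at the lowest, 9.68 at the median and 18.3 at the highest of sham, and 13, 18, 17.4, 27.6 and 25.7 CPM in pMCAO replicates 1 to 5. Its pMCAO values thus began inside the sham range, overlapped by sham replicates 4 and 7. The log2 fold change was 1.24 (SE 0.42) and 1.10 (SE 0.28) with library blocks. Within blocks it was 2.35, 0.35 and 1.46.

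Akr1c13 ran from 0.483 to 9.11 CPM in sham with a median of 6.61, and it was 4.53, 7.36, 17.6, 25.5 and 14.6 CPM in pMCAO replicates 1 to 5. The 3 highest pMCAO values lay above all sham samples and the 2 lowest among them. Its log2 fold change was 1.21 (SE 0.55), 1.19 (SE 0.42) with library blocks, and 1.68, 0.51 and 1.83 within blocks. The ratio of Akr1c12 to Akr1c13 counts was 0.482 to 9.67 in sham and 0.987 to 2.87 in pMCAO samples, with medians of 1.78 and 1.77.

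Akr1c14, a hydroxysteroid dehydrogenase that reduces steroid hormones such as dihydrotestosterone, differed more between early and later sham samples than any other member. It was at 0.478, 1.04 and 0 CPM in the early sham replicates 1, 2 and 3, where 0 counts allows up to 0.724 CPM, and at 14, 11, 10.6 and 20.8 CPM in the later ones. The pMCAO values were 3.93 CPM in the early library and 10.4, 17.8, 19.9 and 17.8 CPM in the later ones, so that among later libraries the groups overlapped. The log2 fold change of 1.25 (SE 0.77) became 0.61 (SE 0.32) with library blocks, and within blocks it was 3.26, 0.12 and 0.83. Akr1c19 ran, with overlap between the groups, from 1.66 to 14.6 CPM in sham (median 9.25), and it was 7.95, 4.30, 27.7, 23.7 and 19.8 CPM in pMCAO samples. Its log2 fold change was 0.81 (SE 0.61), 0.58 (SE 0.54) with library blocks, and 1.86, -0.33 and 1.23 within blocks. With blocks and without sham replicate 6 it was -0.018.

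Without blocks 0 of the 8 members were called, as were 0% of all genes tested, and with library blocks 1 member (Akr1b7) was called against 0.325% of all genes. This call was lost without sham replicate 6, without pMCAO replicate 1 and without the early libraries (0 members each), and without pMCAO replicate 2 it was joined by Akr1c19. A fitted log2 fold change of at least 1 was reached by 4 members, which 7.23% of all genes also reached, and 7 of 8 lay above 0 against 55.2%. The direction was upward in all 3 blocks for 4 members, against 16.3% of all genes. In these blocks pMCAO replicate 1 and sham replicate 6 were each the only library of their group. The median log2 fold change over the members was 1.01, and 0.59 with library blocks, beside 0.0597 and 0.0129 over all genes tested. Since the members were picked for this contrast, nothing is read from these counts.

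**Figure D4:**
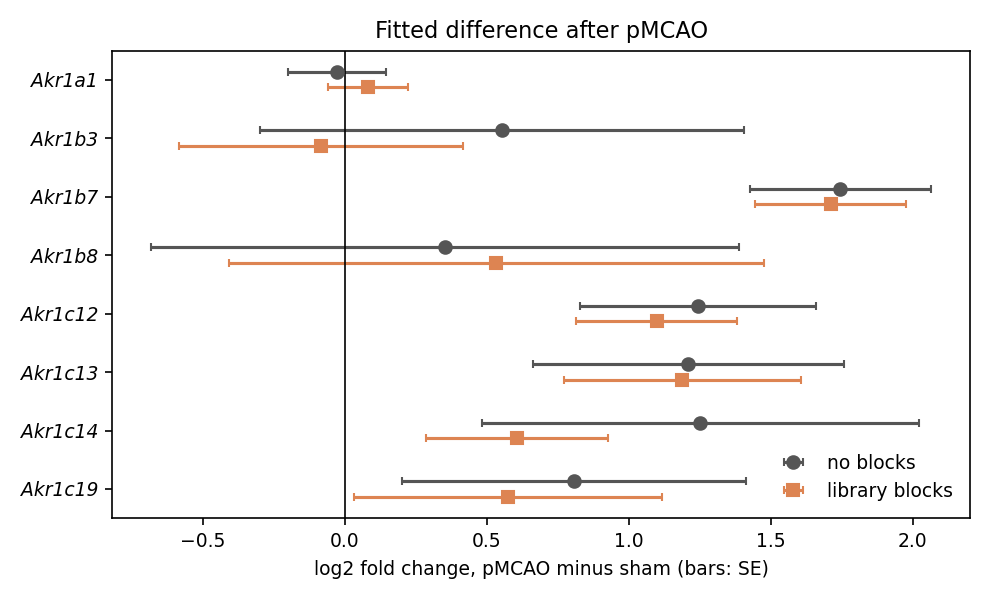
Fitted log2 fold change of pMCAO minus sham for each member with its SE, by limma-voom on the group alone (circles) and with 4 library blocks (squares). Akr1b7 lies at 1.75 and 1.71, Akr1c14 goes from 1.25 to 0.61, and Akr1b3 and Akr1a1 lie at or near 0 with blocks.

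The difference between later and early libraries was not part of the contrast the members were chosen on, but the border between them was found on these data, so it is a description as well. Of all genes tested 11.7% were called between later and early libraries with the group in the fit, and 8.39% were higher in later ones. Of the members, 2 were called (Akr1b3 and Akr1c14), both higher in later libraries. The median log2 difference of all genes was 0.15 and that of the members 1.69. Akr1c14 was 3.61 (SE 0.88) higher in later libraries on the log2 scale and was the 1 member with every later library above every early one, which 9.40% of all genes showed. A term for the group difference changing between early and later libraries was called for 1 gene (0.00691%) and for 0 members. The lowest later value of Akr1c14 was 10.4 CPM and its highest early value 3.93. Akr1b3 was 3.21 (SE 1.00) higher, with 1.2 CPM or more in later libraries and 0.0796 to 1.69 in early ones, where sham replicate 3 lay above pMCAO replicate 4. Without sham replicate 1, 0 members were called, without sham replicates 2 or 3 or pMCAO replicate 1 Akr1c14 alone, and without pMCAO replicate 2, 5 members.

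The differences of the other members not called were 1.77 (SE 1.41) for Akr1b8, 1.73 (SE 0.94) for Akr1c19, 1.65 (SE 0.75) for Akr1c13 and 1.40 (SE 0.49) for Akr1c12. Akr1b7 had the smallest difference above 0, at 0.65 (SE 0.37), and Akr1a1 was at -0.25 (SE 0.16). Among sham samples alone, which leaves the group out of the question, Akr1c14 stood at 4.88 (SE 1.07) and Akr1c19 at 2.45 (SE 0.61), and both were called. Akr1b3, at 3.13 (SE 1.02), was not called there. The others were Akr1c12 at 2.16 (SE 0.68), Akr1c13 at 1.77 (SE 0.83), Akr1b8 at 0.73 (SE 1.43), Akr1b7 at 0.61 (SE 0.43) and Akr1a1 at -0.11 (SE 0.22). Goblet cell markers moved with the same border: 7 of 7 were called higher in later libraries, and their summed level was 4130 to 8120 CPM in early and 20600 to 55200 CPM in later ones. So did 6 of 6 enteroendocrine markers (179 to 304 against 1170 to 2490 CPM) and 5 of 5 tuft cell markers (16.6 to 44.6 against 165 to 754 CPM). Their part in the differences of the Akr1c genes was not tested. The 10 enterocyte markers summed to 15900 to 26800 CPM in sham and 20100 to 54500 CPM in pMCAO samples. Their highest sum was that of the early pMCAO sample, and the later libraries reached at most 29800 CPM. Of the 5 epithelial genes 1 was called higher and 2 lower in later libraries, and of the 10 enterocyte markers 1 higher and 3 lower. Of these 10, 5 were higher in pMCAO samples at an unadjusted p under 0.05 by limma, where 8.43% of all genes had such a p in either direction, and their median log2 fold change was 0.63 beside 0.0597 over all genes (0.32 beside 0.0129 with library blocks). Their part in the difference of Akr1b7 was not tested either.

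**Figure D5:**
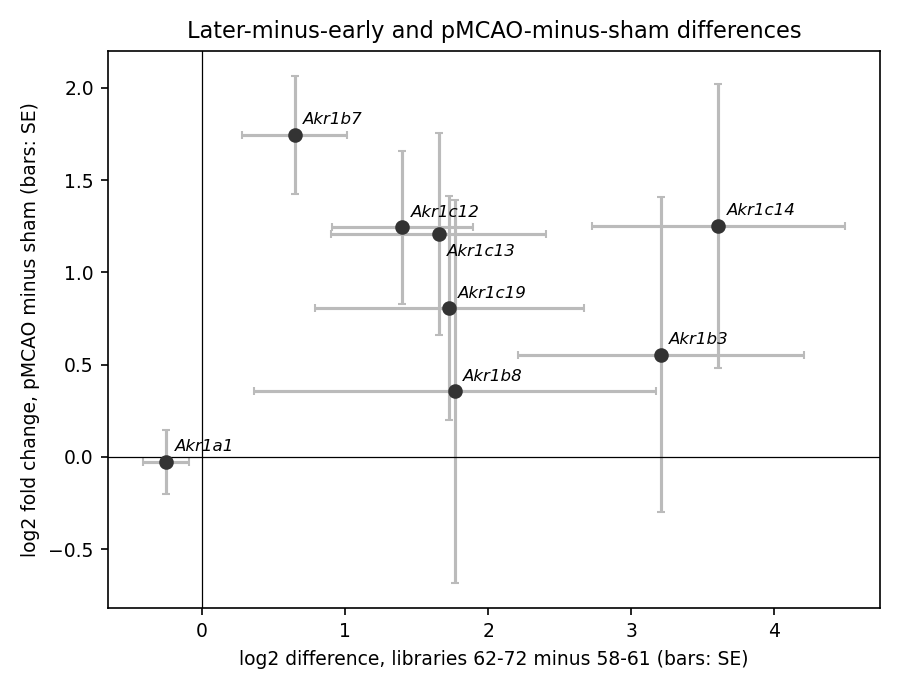
Log2 difference of later minus early libraries (x axis) against log2 fold change of pMCAO minus sham (y axis) for the 8 members, each with its SE. Akr1b7 lies high and to the left (0.65 and 1.75), Akr1c14 and Akr1b3 lie to the right (3.61 and 3.21), and Akr1a1 lies near the origin.

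The Akr1c members also varied together across the 12 samples. The log2 CPM of Akr1c12 and Akr1c14, which share no 100-base window, had a Pearson r of 0.95, and r was 0.94 after group and block means were removed. In early sham replicates 1, 2 and 3 log2 CPM was 1.69, 2.61 and -0.244 for Akr1c12 and -0.95, 0.19 and -3.05 for Akr1c14. The lowest values, in sham replicate 3, rest on 3 and 0 counts, and r without that library is not given. The other pairs of Akr1c members had r from 0.74 to 0.84 over the 12 samples and from 0.14 to 0.39 within group and block. Akr1b7 had r of 0.53 to 0.65 with the 4 Akr1c members over the 12 samples, and -0.23 to 0.42 within group and block. These samples share libraries, blocks and the surgery contrast, so the values describe these 12 libraries.

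Among 6445 genes with a mean log2 CPM of at least 3, those most like Akr1b7 over the 12 samples were Ptgr1 (r = 0.90), a reductase of prostaglandins and lipid aldehydes, N4bp2l1 (0.88) and Guca2b (0.88), the gene of the gut peptide uroguanylin. Within the 7 sham samples these values were 0.36, 0.75 and 0.71. For Akr1b8 they were Pex13, Lrp6 and Dock9 (0.94, 0.90 and 0.89), with the level of Akr1b8 near its limit of detection. For Akr1c19 they included Bche (0.94) and Aldh1a1 (0.90), the latter an aldehyde dehydrogenase that makes retinoic acid.

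Beyond the members, 6 of 13 other aldo-keto reductases and their relatives in the list were in the table and 4 could be tested, with 0 called in either fit. Akr7a5, an aldehyde reductase that also acts on succinic semialdehyde, was at 4.94 ± 2.56 CPM in sham and 8.93 ± 2.16 in pMCAO samples (log2 0.87, SE 0.30; limma adjusted p = 0.45, and 0.211 with library blocks). Akr1b10 had log2 0.76 (SE 0.83) and an adjusted p of 0.818 by limma. Akr1e1 had log2 0.28 (SE 0.31), and Kcnab1, a potassium channel subunit of the same protein fold, -0.63 (SE 0.60). Akr1c21 and Kcnab2 fell under the filter on low counts, and the other 7 were not analysed here.

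The enzymes around the members were set beside them in 5 lists, which were chosen with earlier results of these data known. In the fit without blocks 0 genes of these lists were called. The blocks were set by matching the authors' deposited fold changes for this contrast, so p-values with blocks are not independent of those results. Of 11 polyol and fructose genes, 2 rose with library blocks and 0 fell. They were Tkfc (51.4 ± 13.2 CPM in sham and 136 ± 46.0 in pMCAO; log2 1.40, SE 0.23; limma adjusted p = 0.0134, and 0.0728 without blocks) and Khk, ketohexokinase, the first enzyme of fructose breakdown (41.1 ± 10.3 and 98.4 ± 33.7 CPM; log2 1.10, SE 0.18; limma adjusted p = 0.0108, and 0.110 without blocks). Of 21 other carbonyl and aldehyde enzymes tested, 1 rose with blocks, Ptgr1, at 21.2 ± 6.61 CPM in sham and 68.8 ± 33.7 in pMCAO samples (log2 1.55, SE 0.21; limma adjusted p = 0.00497, and 0.110 without blocks). Every pMCAO sample of Ptgr1 (42.7 to 106 CPM) lay above every sham sample (11.6 to 28.6 CPM). The calls of Tkfc and Khk with blocks were lost without sham replicate 6 (limma adjusted p = 0.147 for both) and without pMCAO replicate 1 (0.104 and 0.0872), and that of Ptgr1 without sham replicate 6 (0.137). Without the early libraries all 3 calls were lost (limma adjusted p = 0.319, 0.263 and 0.123 for Tkfc, Khk and Ptgr1). In these settings the log2 fold change was 1.15 to 1.25 for Tkfc, 0.98 to 0.99 for Khk and 1.22 to 1.77 for Ptgr1. Khk, Tkfc, Ptgr1, Cyp3a11 and the member Akr1b7 were on a list the study drew from this comparison, with more pMCAO mice than here. These genes are therefore not independent evidence of a direction.

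Of 20 nuclear receptor and target genes tested, which include known regulators of Akr1b7, 1 rose with blocks, Cyp3a11, a xenobiotic-metabolising enzyme (121 ± 55.7 and 285 ± 151 CPM; log2 1.64, SE 0.31; limma adjusted p = 0.0332, and 0.39 without blocks). That call was lost when sham replicate 1, 2, 3, 4 or 6 or pMCAO replicate 1 was left out, with limma adjusted p from 0.0515 to 0.192. It was also lost without the early libraries (limma adjusted p = 0.356) and with edgeR and blocks (adjusted p = 0.0625), and the log2 fold change in all these settings was 1.37 to 1.69. Of 16 steroid and prostaglandin enzymes tested 0 were called; Hpgd, which inactivates prostaglandins, had log2 0.91 (SE 0.18) and a limma adjusted p of 0.0415 with blocks, under the fold threshold. Rdh7 and Ptgs2 of the same list had log2 1.01 (SE 0.36) and -1.57 (SE 0.97) without blocks. Of 21 NRF2 targets 0 were called. The smallest unadjusted p-values among them belonged to Ugdh (log2 -0.71, SE 0.26), Nqo1, a quinone reductase (log2 1.03, SE 0.38), and Gclc (log2 -0.54, SE 0.25), with limma adjusted p-values of 0.503, 0.504 and 0.594. The median log2 fold changes without blocks were 0.78 for the polyol and fructose list, 0.20 for the carbonyl list, 0.46 for the nuclear receptor list, 0.0787 for the steroid list and -0.0974 for the NRF2 list, beside 0.0597 over all genes tested.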

How the data were processed

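The 12 samples are EpCAM+ cells sequenced as paired 100-base reads after removal of ribosomal RNA. For this comparison the paper gives more pMCAO mice than the 5 used here. Per the labels and the study's methods, the authors aligned reads to GRCm38 with STAR, counted genes with featureCounts and tested them with limma-voom after correcting for collection day. Whether counting used strand is not given in the sources used here. The authors deposited raw counts per gene, which were used here, with CPM made from them. The deposited log2 fold change, average expression, p-value and FDR columns hold the authors' own comparison. No fit here used them directly, but the library blocks described below were set by matching those fold changes.

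Genes passing filterByExpr (minimum count 10; 1393 removed, 14462 kept) were scaled with TMM and tested by limma-voom on the group (R 4.3.3, limma 3.58.1, edgeR 4.0.16), and called where the p adjusted by Benjamini and Hochberg was no higher than 0.05 and the log2 fold change was 1 or more in either direction. CPM values are TMM-scaled, and errors of fold changes are SE. The log2 CPM behind the within-block differences and correlations adds less than 1 count to each value, so that this offset sets the values at 0 counts. A prior count of 2 was used in limma-trend. The fit was tested on simulated data. The 4 library blocks (58 to 61, 62 to 65, 66 to 68, and 72 alone) are not in the labels: they come from an earlier analysis of these data that set them by matching the authors' deposited fold changes. The study's collection days are not given, and whether the blocks are those days is not known. Library 72 is alone in its block and adds nothing to the difference there. Later against early libraries was fitted with the group.

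The members and lists were chosen with earlier results of these data known. Named beside the members were the other aldo-keto reductases, list genes called in either fit or else the 3 of a list with the smallest unadjusted p, and the 3 genes most like each of Akr1b7, Akr1b8 and Akr1c19. Of the genes this rule named, 1 is not reported here. Gm13857, Gm38056 and the gene nearest in sequence were named for their overlap or similarity. Sequences and positions are from GENCODE M21, with coding sequences aligned by Biopython 1.88. Coding identity stands in place of the planned protein identity, and Akr1b10 was chosen for the printed pair after the identities were seen. Promoters were looked at for motifs and are not reported here. Each sample is labelled as a separate biological replicate. The lowest chi-square per degree of freedom between replicates of the same group was 17.8, so no such pair was the same library sequenced again. That value cannot show whether samples came from different mice. Alternatives were edgeR, DESeq2 (1.42.0), limma-trend, other scaling, filters, weights, covariates and left-out samples. A bound from 0 counts uses 3 counts and covers counting error only.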

Additional observations from a re-analysis of the deposited data

How the results depend on the processing

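Without blocks, the 0 genes called became 70 with DESeq2, 1 with limma-trend, 18 with sample quality weights, 47 with library blocks, 16 with early against later libraries, 156 with the library number as a covariate, 21 with edgeR and 97 with DESeq2 when blocks were added, and 0 to 17 with 1 sample left out. The 0 members called became 1 (Akr1b7) with DESeq2, weights, blocks, early against later libraries, and edgeR or DESeq2 with blocks, 2 with the library number (Akr1b7 and Akr1c12), and 0 to 1 with 1 sample left out (1 without pMCAO replicate 1). The 0 list genes called became 5 with DESeq2, 3 with weights, 4 with blocks, 1 with early against later libraries, 4 with the library number, 3 and 7 with edgeR and DESeq2 with blocks, and 0 to 1 with 1 sample left out. The same replicate numbers do not pair the samples (deviations of same-numbered samples correlated at -0.217 to 0.403, and 1 of 5 was closest to its own number). With the replicate number as a block, 243 genes, 1 member and 7 list genes were called, and Ptgs2 turned to 0.035. With library blocks, the 47 genes became 21 with edgeR, 97 with DESeq2, 0 without the early libraries, and 4 (without sham replicate 6) to 86 (without pMCAO replicate 3) with 1 sample left out. The call of Akr1b7 there was lost without the early libraries (0 members), without sham replicate 6 and without pMCAO replicate 1, and it was joined by Akr1c19 without pMCAO replicate 2, a range of 0 to 2. Kcnab1 ran from -1.32 to 0.10 there with 1 sample left out, above 0 without sham replicate 6 alone. These added fits with blocks were chosen after seeing the data. Later against early libraries, 1687 genes became 729 in sham samples alone and 703 to 2205 with 1 sample left out. The 2 members called became 5 with edgeR, and 0 (without sham replicate 1) to 5 (without pMCAO replicate 2) with 1 sample left out. In sham samples alone 2 members were called, but Akr1c19 took the place of Akr1b3. Sham replicate 6 is the only sham sample of the block 66 to 68, and pMCAO replicate 1 the only pMCAO sample of the block 58 to 61. Without either, that block adds nothing to the group difference with blocks. Beyond that, the cause of these shifts was not tested. The log2 fold change of Akr1b7 stayed at 1.59 to 1.92 with any 1 sample left out, and at 1.33 to 2.04 with blocks. The direction of Akr1a1, Akr1b3 and Akr1b8 changed with the sample left out in both fits (Akr1a1 -0.12 to 0.034, and -0.022 to 0.14 with blocks), and that of Akr1c19 with blocks without sham replicate 6 (-0.018). Low counts limit Akr1b8 and Akr1b3, with 0 to 119 and 1 to 269 counts in a library.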
